A study of Isodiametra pulchra with 2 samples.

Results

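In hatchlings of the acoel worm Isodiametra pulchra, 102 of the 3275 called barcodes of the second droplet library were rich in transcripts of 1 assembled feature, TRINITY_DN30860_c0_g6. They were chosen as the called barcodes with at least 5 UMIs (unique molecular identifiers, 1 per captured RNA molecule) of that feature, and they are called members here. They made up 3.12% of the called barcodes of that library (exact 95% binomial interval 2.55 to 3.77%). The other 3173 called barcodes of library 2 served for comparison, and 4483 called barcodes of library 1 were used to look for the same features together. The deposited feature list repeats the assembly identifier as the name of each feature, so no gene name, role or cell type is given to any of them. The prefix TRINITY_ is dropped below. The members' own counts of DN30860_c0_g6 follow from how they were selected and are a description.

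Both libraries came from wild-type hatchlings of 1 group, cultured at 20 °C on diatoms and dissociated with collagenase at 1 mg/ml for 1 h at 25 °C. Libraries of polyadenylated RNA were made with droplet kits from 10x Genomics that read transcript 3′ ends. The labels name kit versions 2 and 3 for both libraries. The sizes of the deposited barcode lists are those of version 2 for library 1 and version 3 for library 2, so each library has its own kit, and kit and library cannot be told apart. Neither the number of animals nor whether the libraries share a batch of animals is stated. The design holds no contrast between treatments, and each value below comes from 1 library with no replicate, so no test was made. The intervals given are exact 95% intervals (binomial for shares, Clopper-Pearson; conditional Poisson for ratios) that cover counting error only.

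Acoels are small marine worms without a through gut. Food is taken into a central digestive tissue, the body is covered by a ciliated epidermis with gland cells opening through it, and proliferating stem cells called neoblasts supply new cells. In droplet sequencing a barcode marks a droplet, which may hold a cell, more than a single cell, or free RNA from broken cells. The identifiers come from a transcriptome assembled without a genome. In them DN and its number mark a cluster of reads, the letter c a component within it and the letter g a sequence that the assembler kept apart as a gene. A shared number reflects how reads were clustered and is not read here as a shared function.

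Library 1 held 6581711 UMIs and library 2 held 34060611. Barcodes were called above a total set in each library alone, with medians of 288 and 1520 UMIs per called barcode in libraries 1 and 2. In library 2 the shallowest member held 1031 UMIs, and the limit lay just below that. A total of 7605 barcode sequences had a UMI in both libraries, and 0 were called in both. Free RNA was read from the barcodes around the most common total, 60 UMIs in library 1 and 335 in library 2, which are called empty droplets here. There were 35272 of them in library 2. No barcode was left out of them for its count of DN30860_c0_g6. Some barcodes of library 2 rich in it are therefore among them, which can raise the level read as free RNA.

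DN30860_c0_g6 was concentrated in few barcodes. The members held 3249 of its 3419 UMIs in called barcodes of library 2 (95.03%). The lowest member held 5 UMIs, the median 23 and the highest 154, which was 0.0868%, 1.21% and 4.86% of a member's UMIs at the lowest, the median and the highest share. Summed over members it reached 10765 CPM (UMIs per 1000000), against 25.4 CPM in the other called barcodes and 69.2 CPM in the empty droplets. Its average level in the other called barcodes therefore lay below that of free RNA. Most of those barcodes had 0 UMIs, so the average does not tell what the 115 with at least 1 UMI (3.62%) are. Some of those with 3 or 4 UMIs were rich in the same other features as members, as described below. The choice of 5 UMIs cut through a thin tail. There were 5 members with exactly 5 UMIs, 8 barcodes just outside with 4 and 8 with 3, while 84 had 1 and 3058 had 0.

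The other features numbered DN30860, of which 3 share the component c0 and 1 is in c1, were not higher in members in this way. DN30860_c0_g1 was at 194 CPM in members and 222 CPM in the other called barcodes, a ratio of 0.876 (0.662 to 1.14). DN30860_c0_g5 had 3 UMIs in members and 45 in the others, DN30860_c0_g7 had 2 against 259, and DN30860_c1_g1 had 7 against 348. These 4 features were low in both sets of barcodes. How the authors' counting treated reads that fit several of these sequences is not given in the sources used here, so their levels are uncertain.

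Members were slightly deeper than the other called barcodes and held fewer features at equal depth. Their totals had a median of 1751 and a highest value of 20536 UMIs, and those of the others a median of 1512 and a highest value of 18845. Without DN30860_c0_g6 the median totals were 1726 and 1512 UMIs. A deep barcode reaches a fixed count of 5 UMIs more easily, so the choice itself favours deeper barcodes and nothing is read from the difference in totals. With DN30860_c0_g6 left out and each barcode thinned to 900 UMIs, members had a median of 471 features (quartiles 405 and 572) and the others 539 (439 and 612). No barcode was too shallow for this. Without thinning the medians were 794 and 817 features. The quartile ranges overlapped. The deepest member supplied 6.80% of the members' UMIs and the 5 deepest 26.0%.

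A large group of other features was higher in the members. Each comparison below leaves DN30860_c0_g6 out of the totals and uses the 11939 features with at least 50 UMIs over the called barcodes of library 2. Of these, 238 (1.99%) were at least 4-fold higher in summed CPM in members than in the other called barcodes. They are called companions. Features can pass the filter through their UMIs in members: 65 of the 238 had fewer than 50 UMIs in the other called barcodes, and a filter on the others alone left 173 companions of 11745 features. The lower bound of the interval was above 4 for 151 of them, 87 were at least 10-fold higher and 23 at least 100-fold higher. The median fold over the features compared was 0.720. Together the 238 companions held 16.4% of the members' UMIs and 0.621% of the others'. A feature at the edge of the group was DN23155_c1_g1 at 4.06-fold, and DN23304_c0_g2 lay just outside at 3.95-fold.

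Companions were found in very different shares of members. Of the 238, 39 had a UMI in at least 50% of members, 169 in 10% to under 50% and 30 in under 10%. The 20 with the highest folds among those found in at least 10% of members are named here. DN23480_c0_g1, DN27764_c0_g1, DN32015_c1_g2, DN21361_c0_g1, DN27982_c0_g2, DN24482_c0_g4, DN29014_c0_g2 and DN21866_c0_g3 had 72 to 949 UMIs in the other called barcodes. The rest of the 20 had 7 to 31 there, so they passed the filter of 50 UMIs only through the members. Together the 20 held 10.4% of the members' UMIs, 0.0387% of those of the other called barcodes and 0.0879% of those of the empty droplets. The highest share in a single empty droplet was 28.7%. In the median member they held 12.8% of all UMIs, with a lowest share of 0.549% and a highest of 36.4%. A member held a UMI of 3 to 15 of the 20, with a median of 11.

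DN23480_c0_g1 was the companion with most UMIs and was found in 102 of 102 members. It had 3 UMIs in the lowest member, 121 in the median and 574 in the highest, and summed to 49744 CPM, against 142 CPM in the other called barcodes and 349 CPM in empty droplets. The fold over the other called barcodes was 351 (329 to 376). It was 606 with barcodes called at 1500 UMIs and 205 with members chosen at 10 UMIs of DN30860_c0_g6 or more. Its fold was the highest of the 20 as reported, but that of DN20573_c0_g1, at 333 (222 to 522), overlapped it, and other companions led under most alternatives. DN23480_c0_g1 was the most abundant feature of the members after DN31732_c1_g3, which is abundant everywhere (57324 CPM in members, 80853 CPM in the others). Thinned to 900 UMIs, 100% of members and 6.37% of the other barcodes held a UMI of DN23480_c0_g1. Its unthinned share in the others was 10.2%, at an average level below that of free RNA. That average does not describe each barcode: 31 of the others held 51.95% of its UMIs there, and the highest count was 96.

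DN27764_c0_g1 was the other companion found in 102 of 102 members. It had 2 UMIs in the lowest member, 32 in the median and 120 in the highest, or 13257 CPM against 43.3 CPM in the others and 102 CPM in empty droplets, a fold of 307 (272 to 347). Under the same alternatives the fold was 585 and 179. After thinning, 99.02% of members and 3.25% of the others held it. DN23480_c0_g1 and DN27764_c0_g1 are called the shared companions below.

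Further companions were abundant in most members and at 0 in some. DN32015_c1_g2 was found in 89 of 102 members, with a median of 22.5 and a highest count of 237 UMIs, and summed to 11116 CPM against 42.5 CPM (fold 262). DN24482_c0_g4 was also found in 89 members, with a median of 19.5 and a highest of 131 UMIs, at 8839 against 48.6 CPM (fold 182). DN27982_c0_g2 was found in 88, with a median of 15 and a highest of 88 UMIs, at 6605 against 35.4 CPM (fold 187). These 3 features were missing from largely the same members, as described below.

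The remaining named companions were lower or rarer. DN21361_c0_g1 was found in 65 members and reached 295 UMIs in the highest, at 4726 against 18.4 CPM (fold 258), although its median was 1 UMI. Without the 13 members described below its fold was 35.7. DN20573_c0_g1 was found in 61 members (1243 against 3.73 CPM, fold 333), DN20946_c0_g1 in 71 (603 against 3.13 CPM, fold 193) and DN25034_c0_g2 in 64 (502 against 2.83 CPM, fold 177). DN24777_c1_g1, DN27278_c1_g2, DN19935_c0_g2, DN20547_c0_g1, DN30431_c1_g4 and DN31413_c0_g1 were found in 40 to 49 members at 211 to 312 CPM, and the highest member held 4 to 8 UMIs of each. Their folds of 118 to 247 rest on 7 to 13 UMIs in the other barcodes. Over the alternatives the folds of the 20 companions moved by over 1.5 times except for DN20946_c0_g1, DN30431_c1_g4 and DN31413_c0_g1: DN24777_c1_g1 ranged from 168 to 1266, DN19935_c0_g2 from 66.5 to 234 and DN21361_c0_g1 from 35.7 to 643. The last 5 were found in 12 to 14 members each, with folds of 119 to 287 that rest on those members, and are treated together below.

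**Figure D1:**
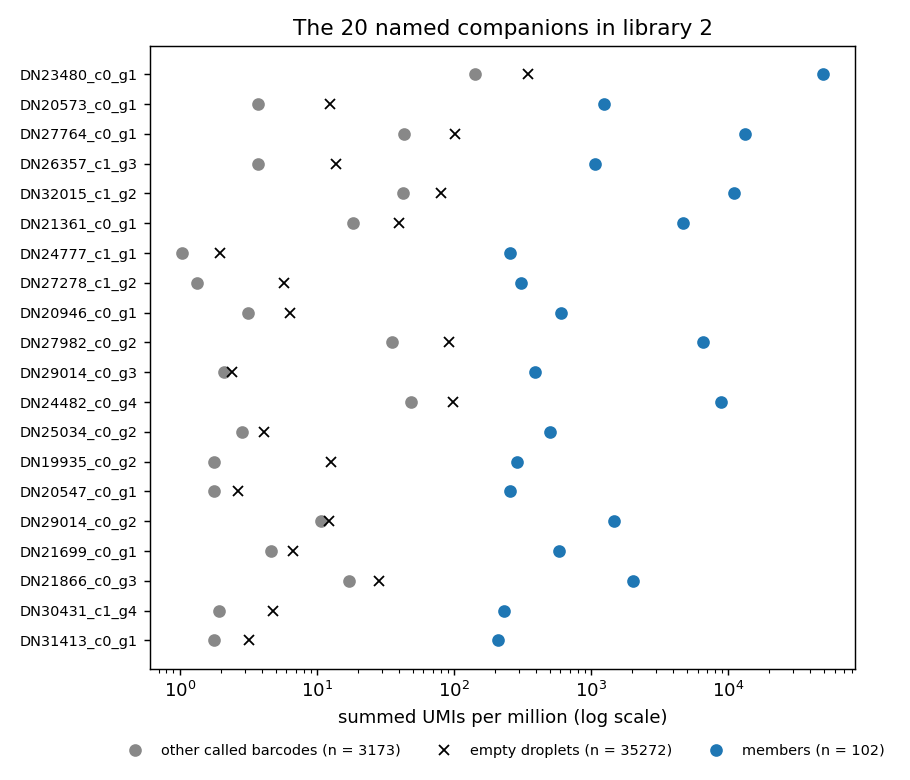
Summed CPM (x axis, log scale) of the 20 named companions (y axis) in library 2, with members in blue, other called barcodes in grey and empty droplets as crosses, DN30860_c0_g6 left out of the totals. Each point is 1 sum without replicates; DN23480_c0_g1 stands at 49744 in members, 142 in the other called barcodes and 349 in empty droplets, and for each of the 20 the cross lies to the right of the grey point.

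Beyond the 20, 30 more companions were found in at least 50% of members. DN32393_c0_g1 was at 1243 CPM in members and 11.2 CPM in the others (fold 111), DN31792_c0_g8 at 1450 against 15.1 CPM (fold 96.3) and DN24729_c0_g2, found in 89.2% of members, at 1226 against 13.4 CPM (fold 91.3). The folds of the 30 fell from 111 to 4.06. DN27470_c0_g3, at 3359 against 808 CPM, was higher in members by 4.16-fold although 47.5% of the other barcodes also held it.

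The summed share of the 20 named companions rose with the count of DN30860_c0_g6 from barcode to barcode, and single companions followed it to very different degrees. In members with 5 to 9 of its UMIs the 20 named companions held a median of 6.79% of all UMIs, with 10 to 18 UMIs 11.5%, with 20 to 49 UMIs 18.1% and with 50 to 154 UMIs 28.3%. Over the 102 members the share of DN30860_c0_g6 and the share of the 20 companions had a Spearman coefficient of 0.871, a description over barcodes of 1 library that share its free RNA. For single companions and DN30860_c0_g6 the coefficient was 0.906 for DN23480_c0_g1 and 0.804 for DN27764_c0_g1, between 0.456 and 0.645 for DN32015_c1_g2, DN20946_c0_g1, DN24482_c0_g4 and DN27982_c0_g2, between 0.167 and 0.352 for 9 others, and between -0.0633 and 0.0326 for the 5 rarest. The shared companions make up most of the summed share. Just outside the choice, the 8 barcodes with 4 UMIs had a median companion share of 1.71% (0.789 to 15.1%), and the 5 members with 5 UMIs a median of 1.48% (0.549 to 11.1%). The 2 sides of the limit overlapped. Of the 3058 barcodes with 0 UMIs of DN30860_c0_g6, the highest companion share was 3.76%.

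**Figure D2:**
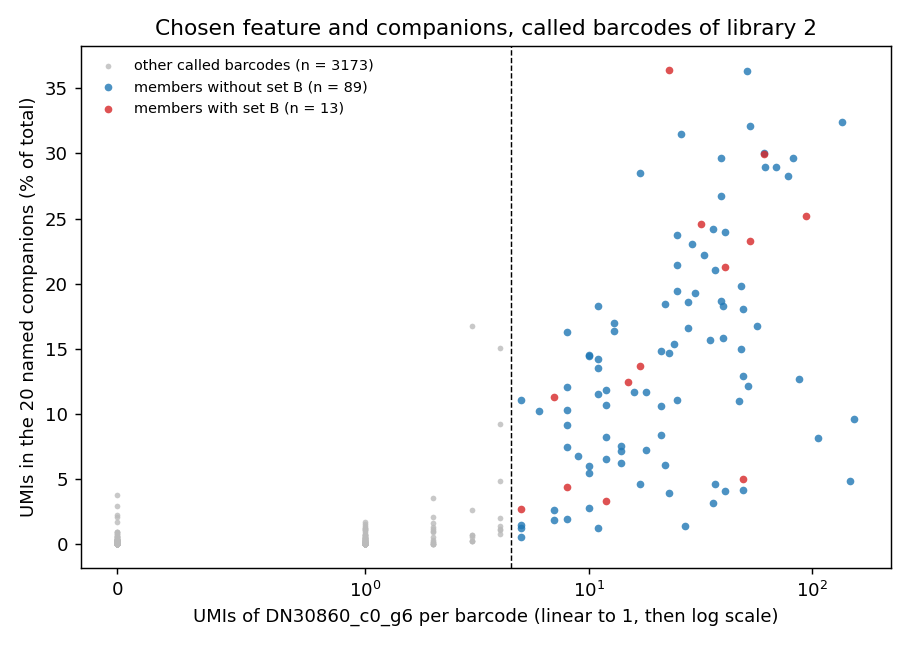
UMIs of DN30860_c0_g6 per barcode (x axis, linear to 1 and then log) against the percentage of the barcode's UMIs in the 20 named companions (y axis) for the called barcodes of library 2; the dashed line marks the choice of 5 UMIs. Grey points are other called barcodes, blue points members without the 5 rare companions and red points the 13 members with at least 3 of them; the share reaches 36.4% in members, and 3 grey points lie at 5% or more.

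The members were not uniform in how far the companions marked them. In 83 members the 20 companions held at least 5% of UMIs, and in 19 they held less. The 19 had a median total of 4778 UMIs and a median of 11 UMIs of DN30860_c0_g6, and the 83 had 1662 and 25. Among the 86 barcodes with the highest doublet scores of library 2 were 5 members, 3 of them among the 19. The part of doublets or of free RNA in the 19 was not tested. There were also 3 barcodes outside the members with at least 5% of UMIs in companions. They had a median total of 1114 UMIs and held 3 or 4 UMIs of DN30860_c0_g6.

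Most members lay close to other members when barcodes were placed by the 2000 most variable features without DN30860_c0_g6. They did not form 1 neighbourhood, as described below for a small group of them. Among the 15 nearest neighbours of a member over 30 principal components, 77.2% were members on average. For the other called barcodes that share was 0.219%. For 84 members at least 8 of the 15 neighbours were members and for 41 all 15 were, while 12 members had 0. The 12 had a median companion share of 1.89%, and 11 of them were among the 19 with under 5%. Companions are among the features used for this placement, so closeness and companion share are not independent. Outside the members, 4 barcodes had at least 8 members as neighbours. They held 1 to 4 UMIs of DN30860_c0_g6, and their median companion share was 12.2%.

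The rarest named companions occurred together and marked a small group of members. DN26357_c1_g3, DN29014_c0_g3, DN29014_c0_g2, DN21699_c0_g1 and DN21866_c0_g3 were each found in under 20% of members, and they are called set B. DN29014_c0_g3 and DN29014_c0_g2 share a component, so they may not be separate genes. Of the 102 members, 13 held at least 3 of the 5 and 11 of these held all 5. A further 2 members held exactly 1 and 87 held none, and no member held 2. Set B had 13 UMIs in the lowest of the 13, 150 in the median and 267 in the highest. In the other 89 members it summed to 2 UMIs.

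Where set B was present, another group of companions was missing. DN20573_c0_g1, DN32015_c1_g2, DN27982_c0_g2, DN24482_c0_g4 and DN25034_c0_g2 are called set A. Both sets were drawn up after these values had been seen, so the contrast between them in members is a description. Set A had 1 UMI in the lowest of the 89 members without set B, 72 in the median and 450 in the highest, which sums to 32973 CPM. Among the 13 members with set B it was at 0 in 9, its highest count was 36 UMIs and the next 4, which sums to 965 CPM. The barcode with 36 set A UMIs held 13 of set B in a total of 3353 UMIs, and it had 14 members and 0 of the other 12 set B members among its neighbours. The count distributions of set A in the 2 kinds of members overlapped through that barcode and the 2 members of the larger group with under 5 UMIs.

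The shared companions and DN30860_c0_g6 were abundant in both kinds of members. DN30860_c0_g6 had a median of 23 UMIs in each, with a range of 5 to 94 in the 13 and 5 to 154 in the 89. DN23480_c0_g1 was at 43825 CPM in the 13 and 50755 CPM in the 89, and DN27764_c0_g1 at 10750 and 13685 CPM. The ratios of these sums were 0.864 (0.823 to 0.906) and 0.786 (0.712 to 0.865). Median counts were higher in the 13, at 142 against 119 UMIs of DN23480_c0_g1 and 44 against 32 of DN27764_c0_g1. A single barcode of 16283 UMIs weighs heavily on the sums of the 13, so no direction is read from the ratios. Median totals were 2405 UMIs in the 13 and 1715 in the 89. Each of 11 of the 13 had exactly 10 others of the 13 among its 15 neighbours. None of the 89 was among those neighbours, and the rest were called barcodes outside the members. In turn, 0.0749% of the neighbours of the 89 were in the group of 13.

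**Figure D3:**
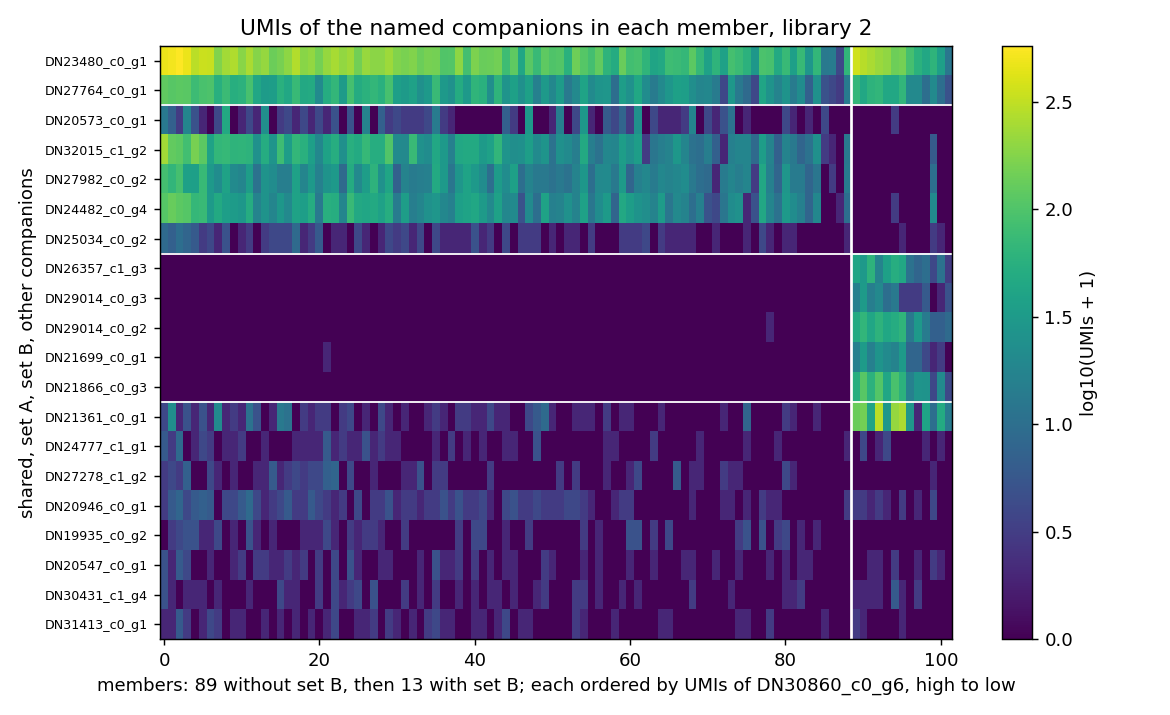
UMIs of the 20 named companions (y axis, in 4 blocks from the top: shared, set A, set B, the others) in each of the 102 members (x axis) of library 2, coloured by log10 of UMIs plus 1. The 89 members without set B stand left of the white line and the 13 with it right, each ordered by UMIs of DN30860_c0_g6; the 2 shared companions fill both sides, set A the left side and set B the right.

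Some companions outside both sets also differed between the 2 kinds of members. DN21361_c0_g1 was found in 13 of 13 and in 52 of 89, at 28573 against 655 CPM, a ratio of 43.6 (37.1 to 51.6), with a median of 40 UMIs against 1. DN19935_c0_g2 was found in 0 of 13 and in 40 of 89, and DN27278_c1_g2 in 1 and 39. DN24777_c1_g1, DN20547_c0_g1 and DN30431_c1_g4 had ratios of 0.679 to 1.23 with intervals that include 1. Among features that are not named companions, the 5 with the highest ratio in the 13, taken from those found in at least 50% of them, were DN32861_c4_g1, DN32410_c1_g1, DN26923_c0_g2, DN26357_c1_g4 and DN21900_c0_g1. DN32410_c1_g1 had 1327 UMIs in the 13, with 5 in the lowest, 93 in the median and 189 in the highest, and 18 UMIs in the 89. DN32861_c4_g1 had 247 against 3 UMIs, DN26923_c0_g2 had 352 against 5, DN26357_c1_g4 had 278 against 5 and DN21900_c0_g1 had 161 against 6. DN26357_c1_g4 shares a component with DN26357_c1_g3 of set B, so the 2 may not be separate genes. DN32410_c1_g1 thus held more of the UMIs of the 13 (30480 CPM) than any single feature of set B did (highest 14034 CPM, DN21866_c0_g3).

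Few features of high level were much lower in members. Of the 11939 features, 1275 (10.7%) were at least 4-fold lower, but 593 of these had 0 UMIs in members, and for 26 the upper bound of the interval was below a ratio of 0.25. Nothing is read from the larger count. Of the 133 features at 500 CPM or more in the other called barcodes, 96 were within 2-fold in members, 9 were at least 4-fold lower and 1 at least 4-fold higher. DN26570_c0_g1 was at 16.8 CPM in members and 671 CPM in the others, and DN22080_c0_g2 at 16.8 and 657 CPM. DN20392_c0_g1 was at 117 and 1616 CPM, and DN31195_c2_g2 at 114 and 1072 CPM.

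These 4 features mark small groups of other barcodes, so the members are near the common low level. The 31 barcodes with most UMIs held 90.1 to 96.7% of the other barcodes' UMIs of each. The share of barcodes with a UMI was alike for DN20392_c0_g1 (26.5% of members and 26.2% of the others) and for DN26570_c0_g1 (4.90% and 4.003%). DN23906_c1_g1 was spread more widely. It was at 127 CPM in members and 771 CPM in the others, a ratio of 0.165 (0.117 to 0.227), and was found in 23.5% and 31.7%, with 21.7% of its UMIs in the top 31 barcodes. The features that most barcodes hold differed less. DN26935_c2_g1, DN32615_c2_g3 and DN30126_c0_g2 were at ratios of 0.847, 0.833 and 0.912.

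The 5 features that mark other groups of barcodes were also counted in members. At least 5 UMIs of DN32476_c1_g1 were found in 3 members (2.94%, 0.611 to 8.36%) and in 39 of the other barcodes (1.23%). These 3 members were deep, with 5831, 5977 and 20536 UMIs, and 4.11 to 4.89% of their UMIs were companions. At least 5 UMIs of DN22219_c0_g1 were found in 1 member (0.980%) and in 0.630% of the others. For DN26570_c0_g1, DN29924_c0_g1 and DN27834_c0_g1 there were 0 of 102 members, which allows a share of up to 3.55%. The shares in the other barcodes, 1.14%, 0.378% and 0.221%, lie within that limit, so no difference was detectable with 102 members. The 20 companions held 0.0108 to 0.0491% of UMIs in the barcodes outside the members that are rich in these 5 features, beside 0.0387% in all other called barcodes. That covers the 20 only, and the 238 were not all particular to members. Of the 180 features at least 4-fold higher in barcodes rich in DN32476_c1_g1, 70 (38.9%) were companions. For DN27834_c0_g1 it was 2 of 636 (0.315%), with the other 3 in between, beside 1.99% of all features. These comparisons share most of their control barcodes.

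Barcodes of library 2 below the calling limit, which were not used to choose the companions, held the same features. There were 90 such barcodes with at least 5 UMIs of DN30860_c0_g6. Their totals ran from 285 over a median of 656 to 1023 UMIs, and they held a median of 8 and at most 40 UMIs of DN30860_c0_g6. DN23480_c0_g1 was found in 90 of 90. The 20 companions held 12.9% of their UMIs, with a median share of 11.3%, against 0.0722% in 9311 barcodes of at least 500 UMIs below the limit that held fewer than 5 UMIs of DN30860_c0_g6. Each of the 20 was at least 4-fold higher in the 90 than in the other called barcodes, with folds of 17.4 to 556 and a median of 227. The other called barcodes are deeper and also served to choose the 20, so these folds are not independent of that choice. The comparison with the 9311 barcodes is free of it. Barcodes with these features thus extended below the calling limit. Of the UMIs of DN30860_c0_g6 in library 2, 44.4% lay outside the called barcodes, against 79.4% of all UMIs.

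Sets A and B also stood apart in those 90 barcodes, which had no part in drawing up the sets. At least 3 of the 5 set B features were found in 4 of the 90. Their set A counts had a median of 0.5 and a highest of 2 UMIs. In the other 86, set A had a median of 27 UMIs and was at 0 in 1 barcode, and set B was at most 1 UMI. The 2 kinds thus recurred below the calling limit in the same library, with little overlap.

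**Figure D4:**
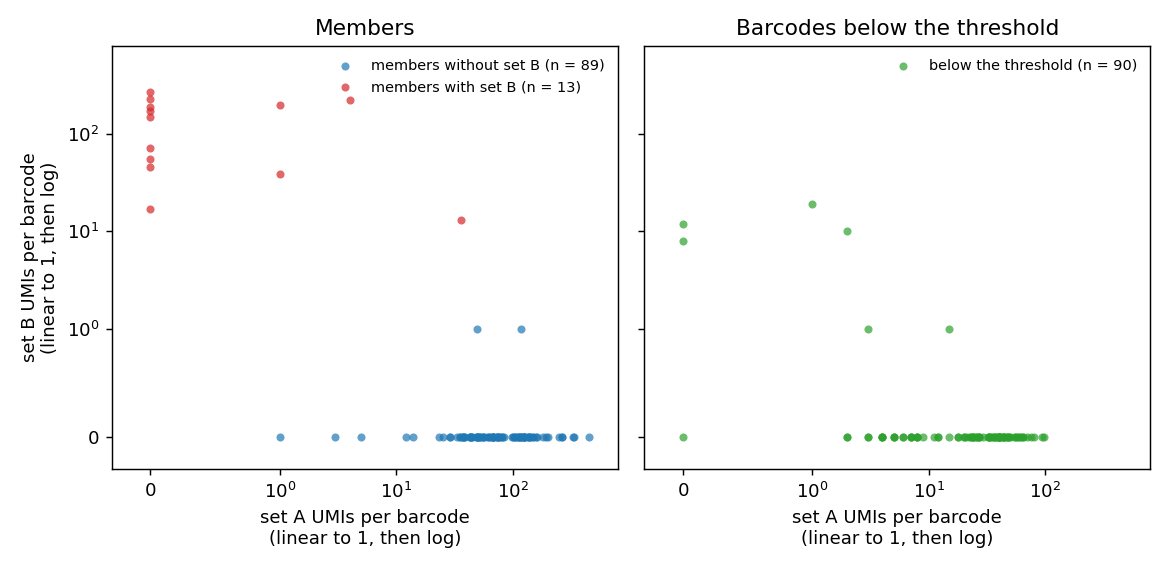
UMIs of set A (x axis) against UMIs of set B (y axis) per barcode, both linear to 1 and then log, for the 102 members (left) and the 90 barcodes below the calling limit with at least 5 UMIs of DN30860_c0_g6 (right). Each point is 1 barcode of library 2; points with over 1 UMI of set B number 13 on the left and 4 on the right, and 12 of the 13 and 4 of the 4 hold at most 4 UMIs of set A.

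Outside the members, set A and set B were also found with the shared companions. Of the other called barcodes, 28 held at least 5 UMIs of set A. The shared companions had at least 5 UMIs in 24 of these, and 10 had 0 UMIs of DN30860_c0_g6. At least 5 UMIs of set B were found in 5 other barcodes, 4 of which had at least 5 UMIs of the shared companions and 1 of which had 0 UMIs of DN30860_c0_g6.

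In library 1, DN30860_c0_g6 was nearly undetected. It had 50 UMIs in the whole library and 21 in called barcodes, at most 1 in each, or 12.2 CPM, against 10765 CPM in the members of library 2 and 4.89 CPM in the empty droplets of library 1. The companions were nevertheless found there, and found together. For the 190 pairs of the 20 named companions, the number of called barcodes with both summed to 1388, against 98.5 expected from the product of the shares of each feature, a ratio of 14.1. The interval lay above the expected number for 103 pairs. For 58 pairs no barcode held both, and the expected number was at most 0.696 in each, so nothing is read from those. Pairs share barcodes and features and are not independent.

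Companions left out of the choice of barcodes were high in the barcodes chosen by the rest. The 10 of odd rank had at least 2 UMIs in 117 called barcodes of library 1, and in these the 10 of even rank summed to 13062 CPM, against 168 CPM in the other barcodes, a ratio of 77.6 (67.2 to 89.7). At least 1 UMI of the even ranks was found in 83.8% of the 117 and in 5.18% of the rest. The reverse choice gave 106 barcodes with 12704 against 202 CPM, a ratio of 62.9 (55.2 to 71.9), and up to 99.1 under settings that chose the companions anew. The barcodes chosen by the companions were deeper: the 121 with at least 3 UMIs of the 20 had a median of 342 UMIs and the rest 285. The part of depth in the co-detection was not tested.

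The 121 barcodes made up 2.70% of the called barcodes of library 1 (2.24 to 3.22%), beside the 3.12% of members in library 2. These shares come from different rules and depths. DN30860_c0_g6 had 1 UMI in each of 7 of the 121 (5.79%, 2.36 to 11.6%) and in 14 of the rest (0.321%, 0.176 to 0.538%), or 143 against 8.40 CPM, a ratio of 17.0 (5.82 to 45.1). This ratio rests on 21 UMIs in all. DN30860_c0_g7 also had 7 UMIs in the 121, found in 5.79% of them, or 143 CPM against 52.2 CPM in the rest. DN30860_c0_g1 was at 368 against 283 CPM. DN30860_c0_g5 and DN30860_c1_g1 had 0 UMIs in the 121 and 1 and 15 in the rest.

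Measured in barcodes chosen on the other 19, single companions kept high ratios in library 1. The interval of the ratio lay above 1 for 18 of the 20, and the median ratio was 77.3. DN23480_c0_g1 was at 7839 CPM against 61.5 CPM in the rest, a ratio of 127 (102 to 161). DN27764_c0_g1 was at 5029 against 29.96 CPM (168) and DN32015_c1_g2 at 2739 against 13.8 CPM (199). DN24777_c1_g1 had 1 UMI and DN29014_c0_g3 had 0 in the called barcodes of library 1, so neither could be assessed there. In CPM as computed, 16 of the 20 were higher in the members of library 2 than in the chosen barcodes of library 1. The totals differ, however. Those of library 1 leave out the companions used for the choice, and those of library 2 leave out only DN30860_c0_g6. DN25034_c0_g2 (1274 against 502 CPM), DN19935_c0_g2 (1420 against 288 CPM) and DN31413_c0_g1 (508 against 211 CPM) were higher in library 1. DN20946_c0_g1, at 616 CPM in library 1 and 603 CPM in library 2, was too close for a direction to be read across unlike totals.

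**Figure D5:**
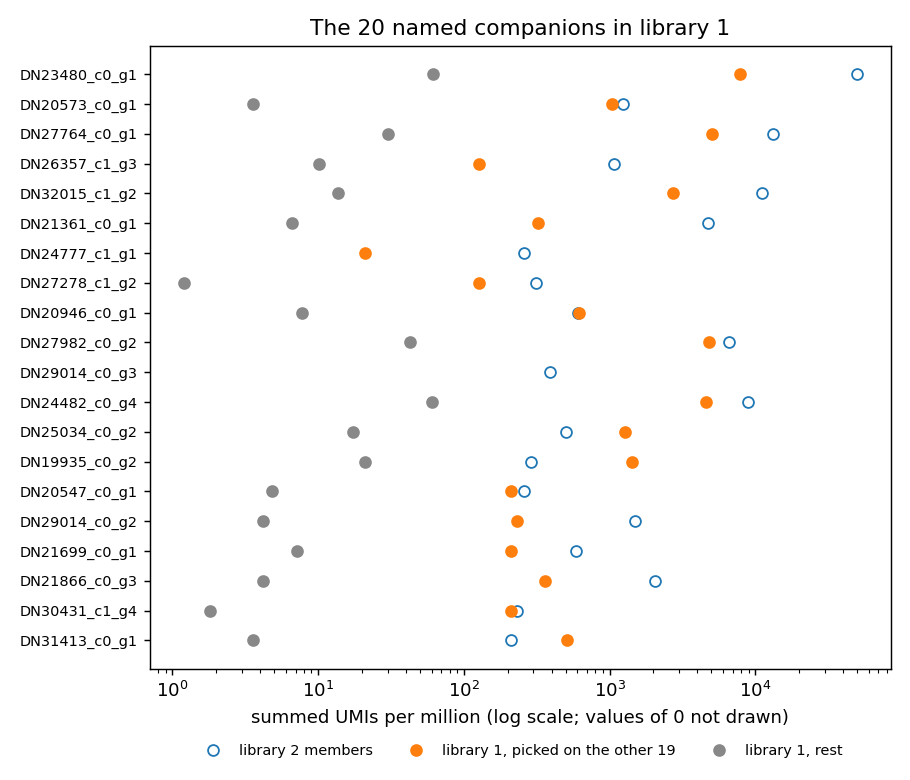
Summed CPM (x axis, log scale) of the 20 named companions (y axis) in called barcodes of library 1 chosen on the other 19 companions (orange) and in the rest (grey), with the members of library 2 as open circles; values of 0 are not drawn. DN23480_c0_g1 stands at 7839 in the chosen barcodes and 61.5 in the rest of library 1, and at 49744 in the members of library 2. Totals leave out the companions used for the choice in library 1 and only DN30860_c0_g6 in library 2.

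Over all 7139 features of library 1 that passed the filter, 155 (2.17%) were at least 4-fold higher in the 121 barcodes than in the rest. The 20 named companions, which chose these barcodes, were left out. Features can pass the filter through their UMIs in the 121 barcodes. Being measured in library 1 thus depends in part on being high there, which can raise the shares and the median fold given here. Of the 155, 66 (42.6%) were companions in library 2. Of the 218 companions beyond the 20, 105 could be measured in library 1, and 62.9% of these 105 were among the 155. The 105 had a median fold of 6.13 in library 1, beside a median of 0.831 over all features measured, and 94 of them were above 1. DN24729_c0_g2 led with 1327 against 11.4 CPM (fold 117), followed by DN22610_c0_g1 at 1138 against 10.2 CPM (fold 112) and DN23574_c0_g1 at 1053 against 11.4 CPM (fold 92.4). In library 2 their folds were 91.3, 109 and 38.2. They passed the filter through the 121 barcodes, with 63, 54 and 50 UMIs there and 19, 17 and 19 in the rest.

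Sets A and B were found with the shared companions more often than expected in library 1 as well, but set B was scarce. At least 2 UMIs of the shared companions were found in 93 called barcodes of library 1 (2.07%, 1.68 to 2.54%). Of these, 79 held set A without set B, 4 set B without set A, 2 both and 8 neither. Over all called barcodes, 295 held set A, and 111 of these also held the shared companions, against 14.5 expected (ratio 7.67, 6.31 to 9.23). Set B was held by 51, and 10 of these also held the shared companions, against 2.50 expected (3.996, 1.92 to 7.35). Most barcodes with either set thus held none of the shared companions. Set A and set B were found together in 5, against 3.36 expected (1.49, 0.484 to 3.48), an interval that includes 1. In the 6 barcodes with set B, 4 held at least 1 of DN32861_c4_g1, DN32410_c1_g1, DN26923_c0_g2, DN26357_c1_g4 and DN21900_c0_g1, with 51 UMIs in all. A single barcode held 17 of their 24 set B UMIs and 35 of these 51, and the next held 3 and 12. Of the 79 with set A alone, 4 did, with 4 UMIs in all.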

How the data were processed

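The deposited matrix holds raw UMI counts per feature and barcode for both libraries. Cell Ranger 3.0.2 is the tool named in the submitters' processing notes, and the matrix header gives the same version. It lists each barcode of the kits, so the authors had applied no cell filter to it. The aligner settings and whether pooling equalised sequencing depth are not given in the sources used here. Barcode suffixes 1 and 2 were matched to the run numbers of the labels. No column of another sample was present (0 columns).

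Barcodes were called at the 99th percentile of the 3000 largest totals of a library divided by 10. No barcode was removed as a doublet, except in an alternative with Scrublet scores (scanpy 1.11.5). Empty droplets were the barcodes within 20% of the most common total. That total was read from log-scaled bins, because the most common exact total over 10 UMIs in library 2 lay far below the main peak. Counts were summed over barcodes and scaled to 1000000 (CPM), with DN30860_c0_g6 left out. Where companions chose the barcodes of library 1, those companions were left out of the totals too, except for the levels of features numbered DN30860. Intervals were computed with scipy 1.17.1, and neighbours with scikit-learn 1.9.0 from log-transformed counts scaled to 10000 per barcode, limited to 10 SD. With 1 library no test was made. The code for folds and intervals was tested on simulated data.

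Named features were the 20 companions of highest fold found in at least 10% of members, the 5 lowest folds among features at 500 CPM or more in the other called barcodes, the 5 most abundant in members, all features numbered DN30860, and the 5 features that mark other groups of barcodes. Others named, sets A and B and the 5 features that go with set B among them, were chosen after their values were seen. The members and lists were chosen with earlier results of these data known. Samples of 2 libraries belong to 1 group. The limits of depth are given beside each value, and 14 alternatives, plus 4 added after seeing the data, are given in the closing section.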

Additional observations from a re-analysis of the deposited data

Results flagged for a closer look

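Signal was found in barcodes outside the main comparison: 90 barcodes of library 2 below the calling limit held at least 5 UMIs of DN30860_c0_g6, beside 102 called ones. Their median total was 656 UMIs, and 66 of them had over 500. The 20 companions held at least 5% of UMIs in 77 of the 90. Barcodes of at least 500 UMIs below the limit with fewer than 5 UMIs of DN30860_c0_g6 held 0.0722% of UMIs in the companions. No group had enough samples to look for a sample that stands apart.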

How the results depend on the processing

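No paired analysis was possible because both libraries belong to 1 group, and leaving out a replicate was not possible because each value comes from 1 library. The number of members (102) became 65 with barcodes called at 1500 UMIs and 168 at 500. Companions (238) became 495 and 87 with feature filters of 10 and 200 UMIs and 700 and 114 at 2-fold and 8-fold. Lower features (1275) became 3839, 329, 3451 and 687 under the same 4 settings and 2251 without the 19 members of low companion share. The share of members among neighbours (77.2%) was 72.9% for members with at least 3 UMIs of DN30860_c0_g6, 70.8% with at least 10, 73.7% called at 1500 UMIs and 88.4% without the 19. The ratio of co-detection in library 1 (14.1) was 12.6 with library 1 called at 250 UMIs and 14.9 without the members with set B. The ratio for held-out even ranks (77.6) was 106 called at 1500 UMIs, 93.1 with library 1 called at 250 and 92.9 without the highest doublet scores. For held-out odd ranks (62.9) it was 98.2 and 94.3 at 3 and 10 UMIs, 87.0 and 99.1 called at 1500 and 500, 86.4 without the highest doublet scores, 85.4 with barcodes chosen at 3 UMIs, 98.7 without the 5 deepest members and 96.5 without the members with set B. The named companions and their ranks are chosen anew under those settings, so these ratios rest on other lists.

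Of 180 folds of single named companions under alternatives, 175 stayed at least 4-fold, with a highest of 1266. The other 5 are set B without the 13 members that hold it, which follows from how those were left out: DN26357_c1_g3, DN29014_c0_g3 and DN21866_c0_g3 fell to 0, DN29014_c0_g2 to 0.365 and DN21699_c0_g1 to 0.848. DN21361_c0_g1 fell from 258-fold to 35.7-fold there. The number of members with set B (13) lay between 10 and 16. Depth limits library 1 most, with a median of 288 UMIs per called barcode.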
